A study of Papilio machaon with 10 samples.

Results

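The genes described here were those whose transcript level in the egg library of Papilio machaon stood alone above the level of every other library. They were chosen by their measured values. A gene was taken when its highest level was at least 10 RPKM (reads per kilobase of gene, scaled to the depth of the library), when the widest gap between neighbouring values, after its 10 log2(RPKM + 1) values had been sorted, was at least 1, and when only the egg lay above that gap. This held for 104 of 15285 genes, or 0.877% of the 11856 genes that reached 10 RPKM anywhere, and since the limit was set at 150 genes, all 104 were kept. They are called egg-gap genes below. The egg level and its distance from the next library are therefore a description and carry no test.

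Papilio machaon is a swallowtail butterfly, and polyadenylated RNA was sequenced across its life cycle to help annotate its genome. The 10 libraries were 1 of eggs, 5 of larvae (instars L1 to L5), a female and a male pupa and a female and a male adult. Their labels gave no genotype or treatment, so whether these differed between libraries is not known. The egg and L1 libraries each pooled 10 individuals, the L2 library pooled 5 and each other library came from 1 individual. Each stage and sex thus had 1 library, there were no replicates, and neither the age of the eggs nor the tissue beyond the stage was labelled.

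A butterfly egg holds transcripts laid down by the mother, and the embryo later replaces them with transcripts of its own as it forms segments, tissues and the first larval cuticle. The larva that hatches feeds and moults, and the pupa rebuilds the body into that of the adult. Transcripts of the egg can therefore come from maternal stores, from the embryo or from the layers around it, and in a library of whole eggs these sources cannot be told apart. Likewise, fewer cells of a type and less RNA per cell cannot be told apart in any of these libraries. The genes carry locus tags only, with no gene name or product in the files, so they are described by tag, level, length and place among the tags.

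The RPKM values moved in steps of 1 read. The read totals behind them, which rest on an assumed length step of 3 bp, lay between 17943036 (L5) and 26492878 (L2), with 17966226 for the egg. On a gene of 1 kb, a count of 0 allowed up to 0.113 to 0.167 RPKM. L2 was the larva least like the others, with a Spearman correlation across genes of 0.73 to 0.77 with each other larva, against at least 0.84 among the other 4. The reads summed over genes exceeded the read total of the scaling by a factor of 1.05 (female pupa, the lowest) to 1.55 (L1, the highest). Counts of L1 as the next library or against other larvae are therefore given below on both scales. The shares of larvae, pupae and adults as next library, and L1 as a percent of the egg, are on the deposited scale only.

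In the egg, the 104 genes ranged from 10.04 to 10952 RPKM with a median of 37.2 and quartiles of 16.6 and 101. In all, 26 genes reached 100 RPKM, 48 lay between 20 and 100 and 30 below 20. The egg value rested on 42 to 331739 reads, with a median of 548, and 10 genes had under 100. The set therefore spanned moderate and very abundant transcripts.

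The gap was 1.64 log2 units at the median and 6.24 at most, reached 2 in 33 genes and reached 3 in 12. As a ratio of RPKM, the egg exceeded the next library 3.45-fold at the median, with a range of 2.03-fold to 114-fold, at least 5-fold in 25 genes, at least 10-fold in 10 and at least 20-fold in 4. The exact 95% interval of this ratio, from the reads of both libraries, began above 1 in all 104 genes and above 2 in 88. These intervals take reads as independent, and cover counting error only and not the difference between one batch of eggs and another. The rule chose the genes by this gap, so a start above 1 was largely fixed in advance. The intervals are not adjusted for that choice.

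**Figure D1:**
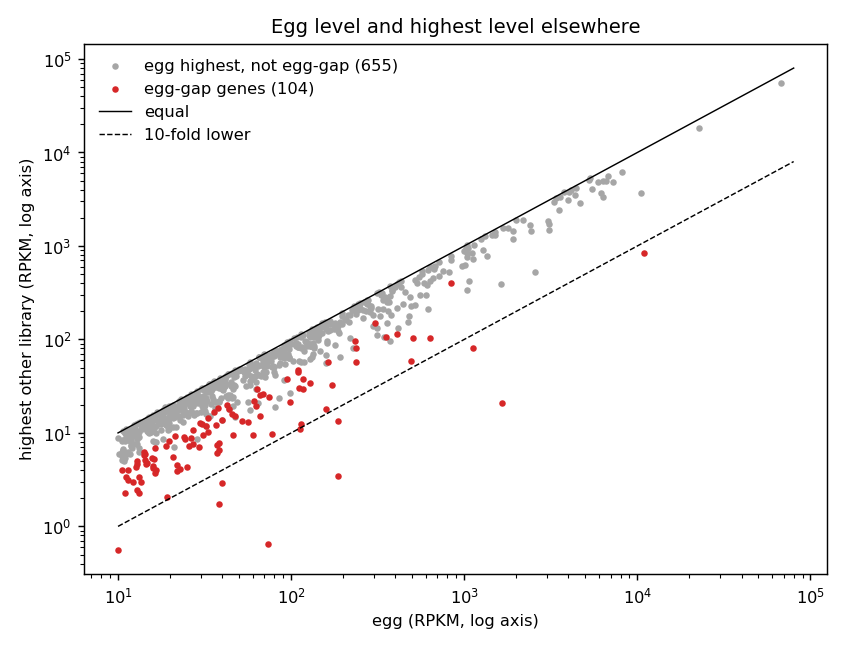
RPKM in the highest of the 9 other libraries (y axis, log scale) against RPKM in the egg (x axis, log scale), 1 red point for each of the 104 egg-gap genes and 1 grey point for each of the 655 other genes highest in the egg, with lines at equality and at 10-fold lower. The red points lie at least 2.03-fold below equality because the rule chose them so, and 10 of them lie at least 10-fold below.

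The levels in the other libraries showed that most of these transcripts were concentrated in the egg without being confined to it. Only 2 of the 104 genes (1.92%) stayed under 1 RPKM in all 9 other libraries. Under the same rule this share was 0 in the L1, L3 and female adult sets, 1.22% for L4, 1.23% for the female pupa, 2.79% for L2 and 4.76% for the male pupa, so the egg lay within the range of most sets. It was higher for L5 (17 of 86, 19.8%) and the male adult (111 of 405, 27.4%). At the other extreme, 26 egg-gap genes were at or above 1 RPKM in all 9 other libraries and 50 reached 10 RPKM in at least 1 of them. The median gene was at 1 RPKM or more in 6 of the 9, 33 genes were at 0 in at least 1 and only 3 were at 0 in 5 or more.

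The egg set was among the smaller ones by count. The same rule gave 34 genes for L1, 179 for L2, 20 for L3, 82 for L4, 86 for L5, 405 for the male adult, 326 for the female pupa, 252 for the male pupa and 217 for the female adult, so only L1, L3, L4 and L5 had fewer than the egg. The egg was the highest library of 759 of the 11856 genes, and in 150 of them it was at least 1 log2 unit above the next. Of those, 46 were left out because a wider gap lay lower among their values, which is the profile of a gene high in the egg, intermediate in some libraries and low in the rest. Another 42 genes had the egg alone above their widest gap, but with a gap under 1.

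At the lower limit of the rule, RR48_02857 and RR48_02758 were just inside, with gaps of 1.02 and 1.01. RR48_02857 had 305 RPKM in the egg, 12.2, 12.4, 65.0, 150 and 24.6 in larvae L1 to L5, 32.7 (female) and 28.1 (male) in the pupae, and 61.3 (female) and 89.4 (male) in the adults. It was expressed in every library, with L4 next to the egg. RR48_03428 and RR48_05977 were just outside, each with a gap of 0.98. RR48_03428 had 115 RPKM in the egg and 57.4 in L1, and RR48_05977 had 18.1 in the egg and 8.69 in the female adult.

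The gene with the widest gap was RR48_05860. It had 1644 RPKM (25260 reads) in the egg and 20.7 RPKM (326 reads) in L1, and then 0.265, 0.545, 0.146 and 0 in larvae L2 to L5, 0 (female) and 0.268 (male) in the pupae, and 0.225 (female) and 0.947 (male) in the adults. The egg was 79.3-fold above L1 (95% counting interval 71.1 to 88.7), and every library after L1 held at most 16 reads. This was a profile of 1 very high library, 1 intermediate library that follows it in development, and the rest near the floor of detection.

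RR48_08903 came closest to a transcript seen in the egg alone. It had 73.9 RPKM (781 reads) in the egg, 0.648 (7 reads) in L1, 0.142 (2 reads) in L4 and 0 in L2, L3, L5, both pupae and both adults. The ratio of the egg to L1 was 114 (95% counting interval 55.1 to 285), the highest of the set. At its inferred length of 588 bp, a count of 0 allowed 0.193 to 0.284 RPKM in the 7 libraries without a read. The only other gene under 1 RPKM in all 9 other libraries was RR48_05071, named after its values were seen. It had 10.04 RPKM (72 reads) in the egg, 0.273 and 0.284 in L1 and L2, 0.559 in L5, 0.0957 in the male pupa and 0 in L3, L4, the female pupa and both adults, so its egg level was the lowest of the set and its traces elsewhere were few.

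The other genes with wide gaps had traces in scattered libraries. RR48_06540 had 187 RPKM in the egg, 2.29, 3.29, 0.762, 0.165 and 0.276 in larvae L1 to L5, 0.0767 (female) and 3.50 (male) in the pupae, and 0.214 (female) and 0.702 (male) in the adults. RR48_03470, an inferred 198 bp long, had 38.5 RPKM (137 reads) in the egg, 0.275, 1.53, 0.942, 0 and 0 in larvae L1 to L5, 0 (female) and 1.73 (male) in the pupae, and 1.21 (female) and 0.256 (male) in the adults. In both genes the male pupa was next to the egg and L2 followed it, and in RR48_03470 the male pupa value rested on 9 reads.

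RR48_13682 had 187 RPKM in the egg, 7.50, 13.4, 0.192, 0 and 0.229 in larvae L1 to L5, 0 (female) and 1.41 (male) in the pupae, and 0.198 (female) and 0 (male) in the adults. Its signal outside the egg lay in the first 2 instars, with L2 above L1. RR48_05164 had 1126 RPKM in the egg, 80.3, 2.96, 59.9, 46.6 and 7.62 in larvae L1 to L5, 6.12 (female) and 5.27 (male) in the pupae, and 31.9 (female) and 36.5 (male) in the adults. Its egg level was very high, but no library lacked it and 4 others besides L1 were above 30 RPKM.

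The most abundant of these 104 transcripts was RR48_15367. It had 10952 RPKM in the egg, 557, 102, 312, 141 and 44.6 in larvae L1 to L5, 17.0 (female) and 181 (male) in the pupae, and 158 (female) and 847 (male) in the adults. The egg was 12.9-fold above the male adult (95% counting interval 12.8 to 13.1), yet 7 of the 9 other libraries were above 100 RPKM. The 104 genes made up 1.48% of the egg's summed RPKM and 0.750% without this single gene. In the other libraries the 104 genes made up between 0.0299% (L5) and 0.145% (male adult) of the sum.

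RR48_10344 was the fourth most abundant of the set in the egg, with 838 RPKM. It had 208, 101, 134, 107 and 53.2 in larvae L1 to L5, 337 (female) and 399 (male) in the pupae, and 91.4 (female) and 72.4 (male) in the adults. Outside the egg it was highest in both pupae, which stood above every larva and adult. RR48_09006 had 411 RPKM in the egg, 50.2, 39.3, 85.3, 87.0 and 31.5 in larvae L1 to L5, 43.3 (female) and 62.2 (male) in the pupae, and 34.9 (female) and 113 (male) in the adults, and it too was expressed throughout.

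**Figure D2:**
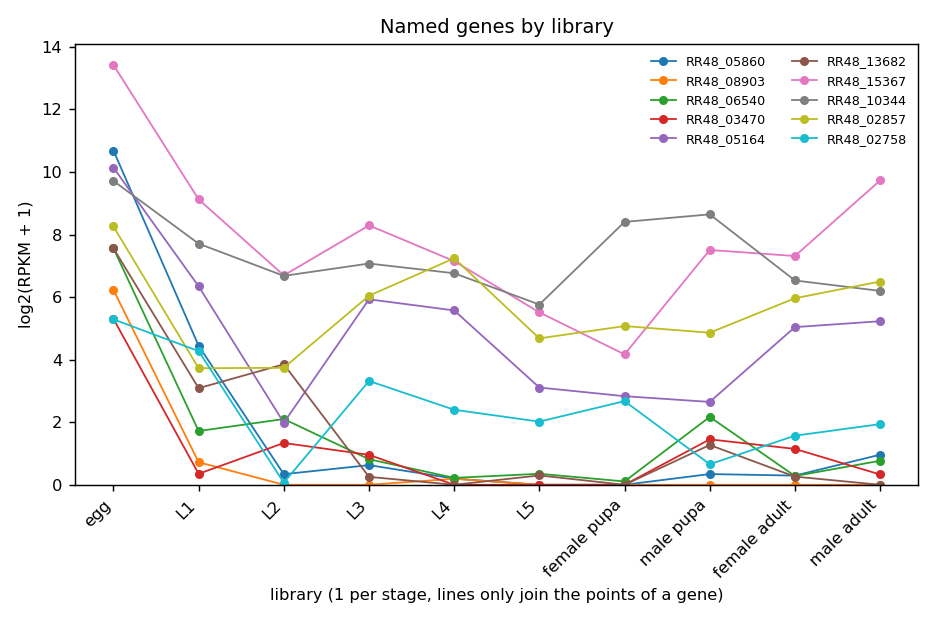
log2(RPKM + 1) (y axis) in the 10 libraries in order of development (x axis) for 10 named egg-gap genes, 1 coloured line a gene, with lines only joining points. RR48_05860 falls from 1644 in the egg to 20.7 in L1 and under 1 after it, whereas RR48_15367 stays above 10 RPKM in every library.

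Outside the egg, L1 was the library in which these transcripts were most often highest. The rule fixed that every other library lay below the egg but not which of them came next. L1 was next in 41 of the 104 genes (39.4%), against 6.92% of all 11856 genes in which L1 was the highest of the 9 libraries other than the egg and 23.4% (153 of 655) of the other genes that were highest in the egg. The male adult was next in 13 genes, L2, L3 and the male pupa in 10 each, the female adult in 9, the female pupa in 5 and L4 and L5 in 3 each. A larva was next in 67 genes (64.4%, all genes 34.1%), a pupa in 15 (14.4%, all genes 40.9%) and an adult in 22 (21.2%, all genes 25.0%).

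The size of that share depended on the scale. With values scaled to the reads summed over genes, L1 was next in 26 of the 104 genes, against 4.29% of all genes and 13.4% of the other egg-highest genes, followed by the male adult in 17 and by L3 and the female adult in 12 each. Among the 50 genes with the widest gaps, L1 was next in 13 on the deposited scale. L1 remained the commonest next library on both scales, and it was also the library with the highest ratio of reads on genes to the read total.

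**Figure D3:**
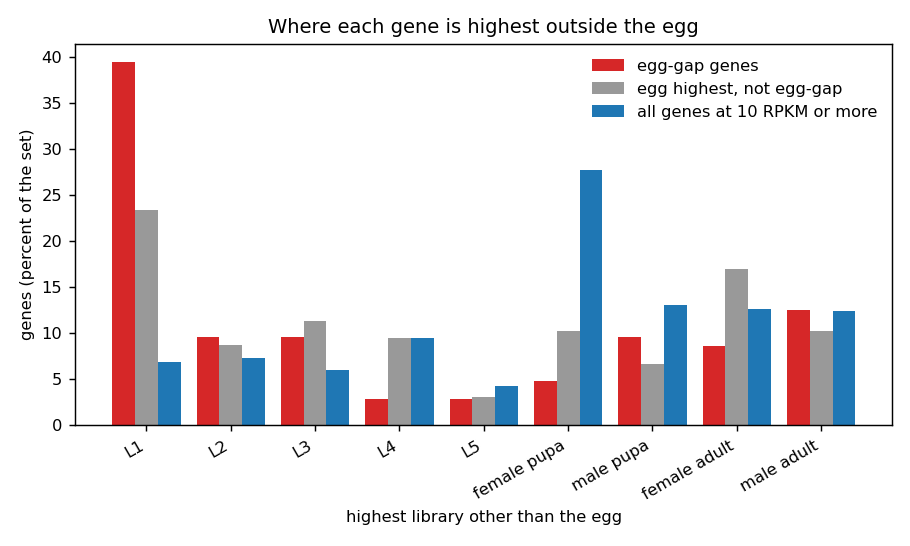
Percent of genes (y axis, from 0) in which each of the 9 libraries other than the egg (x axis) was the highest of those 9, for the egg-gap genes (red), the other genes highest in the egg (grey) and all genes at 10 RPKM or more (blue). L1 takes 39.4%, 23.4% and 6.92%, and the female pupa takes 4.81%, 10.2% and 27.8%.

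Levels in L1 were still well below those in the egg. The L1 value was 17.7% of the egg value at the median, with a range of 0.713% to 48.2%, and was below 10% in 31 genes. The median of the 104 genes was 6.11, 1.85, 3.00, 2.31 and 0.783 RPKM in larvae L1 to L5, 1.33 (female) and 2.44 (male) in the pupae, and 3.05 (female) and 3.29 (male) in the adults. For comparison, the median of all genes at 10 RPKM or more moved only between 9.73 (L5) and 18.7 (female pupa), and was 13.4 in L1. No egg-gap gene was at 0 in L1, whereas 17 were at 0 in L5 and 15 in the female pupa, and between 4 and 8 in each of the other libraries. The share of all genes at 0 in each library is not given here, so these counts only describe the set.

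The decline through the larval stages was not even. L1 exceeded L5 in 95 of the 104 genes (91.3%, all genes 66.6%, other egg-highest genes 84.3%), and L1 exceeded the mean of L2 to L5 in 83 (79.8%, all genes 39.3%). L1 was the highest larva in 61 genes (58.7%, all genes 18.1%), L3 in 18, L2 in 13 and L4 and L5 in 6 each. L2 fell below both L1 and L3 in 55 genes (52.9%), against 36.2% of all genes and 58.6% of the other egg-highest genes, so a dip at L2 was at least as frequent among the other genes highest in the egg. L5 was the lowest larva in 59 genes (56.7%, all genes 46.8%, other egg-highest genes 49.6%). Scaled to reads on genes, L1 exceeded L5 in 92 genes (all genes 57.4%) and the mean of L2 to L5 in 73 (all genes 27.5%), and it was the highest larva in 55 (all genes 11.9%). On that scale L2 fell below both L1 and L3 in 52 genes (all genes 31.2%), and L5 was the lowest larva in 58 (all genes 41.3%). Scaled to the 75th percentile, L5 was the lowest larva in 55 (all genes 30.4%). With 1 library an instar, none of these steps had a replicate check.

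**Figure D4:**
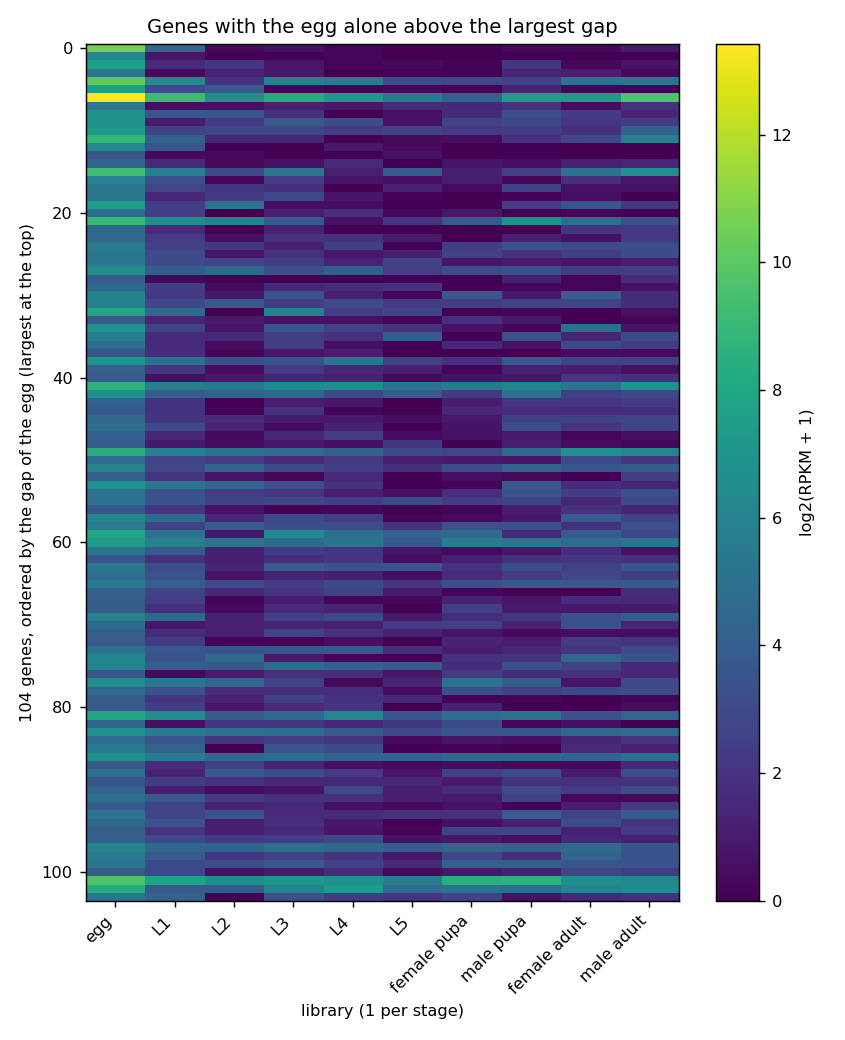
log2(RPKM + 1) (colour) of the 104 egg-gap genes (rows, widest gap at the top) in the 10 libraries (columns). Lighter colours are higher, and the egg column is the lightest in every row by choice, L1 is next in 41 rows, and L5 and the female pupa have the most rows at 0, with 17 and 15.

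Few egg-gap genes stood apart between larvae and the later stages, and the rule itself favoured this. A gene with a wider gap among its 9 other values was left out. The low shares below are therefore partly set by the choice of genes. The 5 larval libraries were compared with the 4 pupal and adult ones without the egg, with limma on log2(RPKM + 1) over the 13967 genes with a mean of at least 1 RPKM in these 9 libraries. The libraries of a side were different stages and not replicates. The p-values therefore set the difference against a spread that mixes stage, individual or pool and, in pupae and adults, sex. Of the 97 egg-gap genes tested, 2 were higher in larvae at a Benjamini-Hochberg adjusted p under 0.05, against 4.63% of all genes, and 0 were lower, against 1.98%. At an unadjusted p under 0.05 in limma, 12 passed, 10 of them higher in larvae, which was 12.4% of those tested against 22.9% of all genes. The median difference, larvae minus later stages, was 0.08 log2 units against -0.31 over all genes, and it was above 0 in 50 of the 97 against 35.1% of all genes. Over all genes, 70.1% of the calls were higher in larvae, and 58.0% with values scaled to reads on genes, under which the median difference of all genes was -0.48.

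The gene with the smallest p was RR48_04964. It had 14.4 RPKM in the egg, 3.15, 1.34, 5.18, 2.95 and 1.78 in larvae L1 to L5, 0.0915 (female) and 0.180 (male) in the pupae, and 0 (female) and 0.120 (male) in the adults. All 5 larvae lay above all 4 later libraries, and the difference was 1.74 log2 units (SE 0.39, limma adjusted p = 0.0285). The adjusted p rose above the threshold when L1, L3, L4, the male pupa, the female adult or the male adult was left out (range over the 9 omissions 0.0300 to 0.0724), with a difference of 1.55 to 1.90 each time.

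RR48_04450 was the second gene to pass. It had 66.0 RPKM in the egg, 13.2, 12.4, 25.5, 16.5 and 12.4 in larvae L1 to L5, 2.07 (female) and 8.80 (male) in the pupae, and 5.35 (female) and 1.87 (male) in the adults. The larvae again lay above every later library, by 1.76 log2 units (SE 0.44, limma adjusted p = 0.0428). This call held only when the male pupa was left out (limma adjusted p = 0.0244) and was lost with each of the other 8 libraries left out (up to 0.106), with a difference of 1.51 to 2.10.

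Non-overlapping ranges were rare in the set. The rule left out genes whose gap between such ranges was wider than that of the egg, so a low share was partly fixed. In 4 of the 97 genes all larvae lay on one side of all pupae and adults, against 12.0% of all genes tested, and in each of the 4 the larvae were higher. Besides RR48_04964 and RR48_04450 they were RR48_01344 and RR48_05125, which were named after their values were seen. RR48_01344 had 1.46 to 7.83 RPKM in the larvae and 0.645 to 1.11 in the later libraries (limma adjusted p = 0.0555), and RR48_05125 had 1.30 to 5.33 and 0.282 to 0.667 (limma adjusted p = 0.0998).

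The lowest differences did not pass. RR48_01961 had 46.3 RPKM in the egg, 4.82, 3.50, 1.28, 4.57 and 0 in larvae L1 to L5, 4.49 (female) and 9.50 (male) in the pupae, and 7.21 (female) and 7.90 (male) in the adults. The groups overlapped through L1 and L4, and the difference was -1.33 log2 units (limma adjusted p = 0.188). RR48_13684 had 491 RPKM in the egg, 16.9, 1.76, 1.60, 0 and 0.273 in larvae L1 to L5, 0.380 (female) and 2.53 (male) in the pupae, and 6.37 (female) and 59.1 (male) in the adults. L1 and the male adult were each far above the rest of their side and the groups overlapped. The difference was -1.30 (limma adjusted p = 0.501), and -0.25 with the male adult left out.

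The count of genes apart between the sexes in both stages was low, as it was over all genes. No test of sex was run, and a gene was counted when the sexes were at least 4-fold apart on RPKM + 1 in the same direction in pupa and adult. RR48_15367 was the 1 gene higher in males, against 2.37% of all 13967 genes, with 17.0 RPKM in the female and 181 in the male pupa and 158 in the female and 847 in the male adult. RR48_01109 was the 1 gene higher in females, against 0.523% of all genes, with 11.7 RPKM (381 reads) in the female and 0.969 (32 reads) in the male pupa and 15.3 (402 reads) in the female and 2.17 (54 reads) in the male adult. RR48_01109 also had 66.5 RPKM in the egg, 3.76, 0.809, 9.91, 1.26 and 0.177 in larvae L1 to L5, and was named after its values were seen. With a pseudocount of 0.1 the count in either direction was 6, against 6.27% of all genes, and at 2-fold it was 11, against 9.90%, so these shares lay near those of all genes.

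By direction alone, the male pupa more often had the higher level. The female pupa exceeded the male pupa in 35 of the 104 genes (33.7%), against 56.1% of all genes and 50.5% of the other egg-highest genes. Scaled to reads on genes the count was 41 against 63.4% of all genes, and scaled to the 75th percentile it was 33 against 49.2%, so the share lay below that of all genes on each scale. In adults the female was higher in 41 genes (39.4%), against 45.2% of all genes and 52.8% of the other egg-highest genes. Scaled to reads on genes it was higher in 39, against 39.6% of all genes. These are 1 individual of each sex, so sex and individual cannot be told apart.

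Some egg-gap genes carried neighbouring locus tags. Consecutive numbers of these tags were taken as a guide to neighbouring genes, which was not checked against a genome. Of the 104 genes, 16 (15.4%) had another egg-gap gene at the next tag number, against 204 of all 15285 genes (1.33%) that had an egg-gap gene there. They formed 8 pairs and no longer run. Within 3 numbers, 25 genes (24.0%, all genes 3.68%) fell into 11 groups of at most 3. Adjacency was not particular to the egg-gap genes. Of the 655 other egg-highest genes, 122 (18.6%) had another of that group at the next tag. By the same rule, the share with a gene of the same set there was 31.3% for the L2 set, 29.9% for the male adult set, 23.5% for the L1 set and 21.4% for the male pupa set. It was between 0 and 15.1% for the others. These groups differ in size, and the share over all genes is not given for them.

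The members of a pair did not always share a profile outside the egg. Over the 9 other libraries, Pearson's r of log2(RPKM + 1) within a pair ran from -0.06 to 0.98 with a median of 0.78 and was at least 0.5 in 5 of 8 pairs. It is a description, because the 9 points come from the same libraries in each pair. Near-identical neighbours could share reads, and whether the pairs are copies of each other was not tested.

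The most alike pair was RR48_14743 and RR48_14744 (r = 0.98). RR48_14743 had 505 RPKM in the egg, 96.1, 62.6, 11.9, 0.579 and 3.10 in larvae L1 to L5, 12.5 (female) and 104 (male) in the pupae, and 26.7 (female) and 9.14 (male) in the adults. RR48_14744 had 113 in the egg, 10.7, 10.9, 2.92, 0.0932 and 0.499 in larvae L1 to L5, 2.08 (female) and 7.94 (male) in the pupae, and 3.98 (female) and 1.59 (male) in the adults. Both were lowest at L4, and among the pupae and adults both were highest in the male pupa. Their inferred lengths were close, at 432 and 447 bp.

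RR48_08561 and RR48_08562 (r = 0.91) had L1 next to the egg in both members. RR48_08561 had 19.2 RPKM in the egg, 2.06, 0.286, 0.530, 2.05 and 0 in larvae L1 to L5, 0.733 (female) and 0.434 (male) in the pupae, and 1.28 (female) and 1.73 (male) in the adults. RR48_08562 had 60.9 in the egg, 21.8, 1.32, 4.66, 7.21 and 0.831 in larvae L1 to L5, 2.43 (female) and 3.56 (male) in the pupae, and 9.22 (female) and 13.3 (male) in the adults. L4 and the adults were the next highest libraries in each.

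RR48_14367 and RR48_14368 (r = 0.91) had 14.5 and 37.3 RPKM in the egg. In RR48_14367 the other values were 4.64, 0.146, 1.08, 0.161 and 0.216 in larvae L1 to L5, 1.35 (female) and 0.740 (male) in the pupae, and 2.24 (female) and 1.77 (male) in the adults. In RR48_14368 they were 7.51, 0.639, 2.85, 0.814 and 1.31 in larvae L1 to L5, 5.34 (female) and 2.68 (male) in the pupae, and 4.51 (female) and 7.51 (male) in the adults. Both were lowest in L2 and L4, and the male adult equalled L1 in the second gene only.

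RR48_04226 and RR48_04227 (r = 0.78) differed in inferred length, the former being the shortest gene of the set at 108 bp and the latter 867 bp long. RR48_04226 had 30.9 RPKM (60 reads) in the egg, 9.07, 4.19, 3.02, 1.16 and 0.516 in larvae L1 to L5, 2.51 (female) and 9.54 (male) in the pupae, and 4.45 (female) and 9.37 (male) in the adults. RR48_04227 had 26.4 in the egg, 8.91, 0.610, 1.61, 1.15 and 0.450 in larvae L1 to L5, 2.14 (female) and 4.18 (male) in the pupae, and 6.22 (female) and 4.55 (male) in the adults. Both were higher in L1, the male pupa and the adults than in L3 to L5.

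RR48_02757 and RR48_02758 (r = 0.78) shared L1 as the next library and a near absence in L2. RR48_02757 had 43.9 RPKM in the egg, 18.0, 0.0275, 10.7, 6.76 and 0.0406 in larvae L1 to L5, 0.113 (female) and 0 (male) in the pupae, and 2.31 (female) and 1.29 (male) in the adults. RR48_02758 had 38.1 in the egg, 18.3, 0.0475, 8.97, 4.27 and 3.05 in larvae L1 to L5, 5.38 (female) and 0.576 (male) in the pupae, and 1.97 (female) and 2.83 (male) in the adults. They parted in L5 and the female pupa, where the second gene was above 3 RPKM and the first below 0.2.

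The remaining 3 pairs were less alike. RR48_04965, beside RR48_04964 (r = 0.44), had 110 RPKM in the egg, 15.6, 18.7, 22.0, 6.66 and 12.6 in larvae L1 to L5, 3.88 (female) and 29.9 (male) in the pupae, and 4.63 (female) and 6.61 (male) in the adults. The male pupa was its highest library after the egg, whereas RR48_04964 was near 0 there. RR48_01962, beside RR48_01961 (r = -0.06), had 24.9 in the egg, 4.33, 0, 1.17, 2.57 and 0.199 in larvae L1 to L5, 0.761 (female) and 0.0341 (male) in the pupae, and 0.129 (female) and 0 (male) in the adults. Outside the egg RR48_01961 was highest in the male pupa and the adults, and RR48_01962 in L1 and L4.

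RR48_08328 and RR48_08329 (r = 0.20) parted in the female adult. RR48_08328 had 118 RPKM in the egg, 5.75, 0.605, 11.2, 4.98 and 2.74 in larvae L1 to L5, 0.579 (female) and 0.122 (male) in the pupae, and 29.4 (female) and 0.649 (male) in the adults. RR48_08329 had 14.1 in the egg, 5.77, 1.38, 1.81, 0.540 and 0.263 in larvae L1 to L5, 0.547 (female) and 0.0899 (male) in the pupae, and 1.02 (female) and 3.70 (male) in the adults. The former was next highest in the female adult and the latter in L1.

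The genes beside the egg-gap genes were also often highest in the egg. Of 188 genes at a neighbouring tag that were not in the set, 37 (19.7%) had the egg as their highest library, against 1131 of all 15285 genes (7.40%). Within 3 numbers the share was 66 of 538 (12.3%).

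The stretch of tags from RR48_13675 to RR48_13689 held 4 egg-gap genes among 15 tags and was chosen after its values were seen. The egg was the highest library of 8 of the 15 genes, the male pupa of 6 and L2 of 1. The egg-gap genes there were RR48_13682 and RR48_13684, given above, and RR48_13677 and RR48_13687. RR48_13687 had 37.2 RPKM in the egg, 6.06, 3.56, 2.46, 0 and 1.32 in larvae L1 to L5, 0.329 (female) and 5.05 (male) in the pupae, and 0.500 (female) and 0.526 (male) in the adults. RR48_13677 had 13.2 in the egg, 3.34 in L5, 1.10 in the male pupa and at most 0.913 in each of the other 7 libraries.

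Levels of neighbours in this stretch were in places far above those of the egg-gap genes. RR48_13688 had 6301 RPKM in the egg and 3370 in L1, and RR48_13678 had 3103 in the egg and 1465 in L3, with these larvae next to the egg. RR48_13686 had 1041 in the egg and 2260 in the male pupa, and RR48_13685 had 762 in the egg and 1289 in the male pupa. RR48_13675 had 13.5 in the egg and 25169 in L2. All 4 egg-gap genes were at or below 0.450 RPKM in L4 and at or below 0.380 in the female pupa, and at 0.526 or less in the male adult except RR48_13684.

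**Figure D5:**
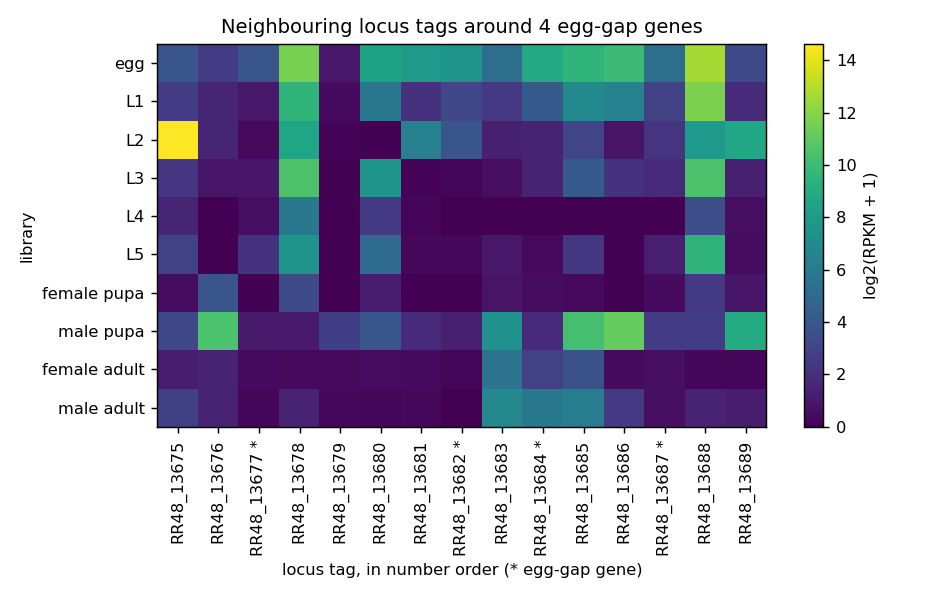
log2(RPKM + 1) (colour, lighter is higher) in the 10 libraries (rows) of the 15 genes with tags RR48_13675 to RR48_13689 (columns, in number order). The 4 egg-gap genes, marked with an asterisk (RR48_13677, RR48_13682, RR48_13684, RR48_13687) are interleaved with genes that are highest in the egg with a high larva, such as RR48_13688, or highest in the male pupa, such as RR48_13686.

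The median inferred length of the egg-gap genes was below that of the table, as in most sets chosen by the same rule. For the other libraries the median ran from 757.5 bp (L3) to 939 bp (female adult), except 1293 bp for L1. The length inferred from the steps of the RPKM values was 877.5 bp at the median with quartiles of 452 and 1297 and a range of 108 to 6516 bp, against a median of 981 bp (quartiles 516 and 1659) for all genes and 972 bp for the other egg-highest genes. In all, 13 genes (12.5%) were under 300 bp, against 9.66% of all genes. The median was 946.5 bp over the 98 genes with at least 20 reads outside the egg. RR48_07449, the gene with the fewest egg reads (42), was 204 bp long and 2.87-fold above the next library, with a 95% counting interval of 1.66 to 5.11.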

How the data were processed

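The authors sequenced polyadenylated RNA of 10 libraries as paired-end reads and deposited 1 table of RPKM values for 15285 genes. The submitters' processing notes name TopHat 1.0.12 and 1.4.1, the authors' own assembly of this species was the genome they mapped to, and the tool that counted reads is not given in the sources used here. Each library column was matched to its sample by its name, and the stage and sex of a library came from its labels.

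Levels were compared as log2(RPKM + 1). Read counts were worked out from the steps between RPKM values of low genes, on the assumption that genes are whole multiples of 3 bp long. Another step would rescale the lengths and the read totals but not the reads. The ratios of reads on genes to those totals would move with that step. The length of a gene was the shortest multiple that made its reads whole within 0.0001 in all libraries, and no gene lacked such a length. The procedure was run on simulated data with lengths of the same step, which cannot test the 3 bp assumption. Because the RPKM of a gene depends on the total it was scaled to, counts were repeated with values scaled to the reads summed over genes and to the 75th percentile. Ratios of 2 libraries carry exact conditional 95% intervals, and 0 counts the limit that 3 reads allow.

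Larvae were compared with pupae and adults, the egg left out, with limma 3.58.1 in R 4.3.3 (empirical Bayes with an intensity trend, mean RPKM of at least 1, Benjamini-Hochberg over all genes tested, threshold 0.05). Other calculations used scipy 1.17.1, pandas 2.3.3 and numpy 2.4.6 under Python 3.11.15. The other counts are descriptions, and no test of sex or of single stages was run. Genes were named by rule: the 6 widest gaps, the 4 highest egg levels, the 4 highest levels elsewhere, those next to the limit of the rule, the runs of consecutive tags, the 2 largest rises in larvae among genes past the limma threshold and, as no fall passed, the 2 largest falls by size. Since every run had 2 tags, all 8 pairs were named. The locus tags were looked up in the RefSeq gene table of assembly ilPapMach1.1, which held none of them, so no names and no sequences are given. The genes and the comparisons were chosen with earlier results of these data known.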

Additional observations from a re-analysis of the deposited data

Results flagged for a closer look

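The larval values were examined in 31 sets of 5 (the named genes and the sum, the median and the number at 0 of all egg-gap genes). In 6 of them a library lay farther from the others than Dixon's 95% critical value of 0.71 of the range allows. About 1 in 20 sets of normal values pass it by chance. RPKM values of 5 different instars need not be such a set, and the share over all genes is not given here. In all 6 genes the library was L1 and it was high. RR48_05860 had 20.7 RPKM in L1 with 0.545 in the next larva, so the gap was 0.974 of the range. RR48_13684 had 16.9 RPKM in L1 and 1.76 in the next larva (0.896 of the range), and RR48_04227 had 8.91 and 1.61 (0.863). RR48_14367 had 4.64 RPKM in L1 and 1.08 in the next larva (0.791 of the range), RR48_08903 had 0.648 and 0.142 (0.781), and RR48_08329 had 5.77 and 1.81 (0.719). With values scaled to reads on genes, 5 of the 6 stayed past the critical value, with RR48_08329 at 0.659 of the range. The L1 value of RR48_08903 rests on 7 reads. The 6 genes were named partly for their gap or for their neighbours, and L1 was the commonest library next to the egg in the whole set, so they are not independent of the values given above.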

How the results depend on the processing

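Of 117 alternative values, 79 stayed on the same side of their threshold or within the spread allowed for them, and no direction turned. The rule gave 104 genes, 40 with a highest level of at least 50 RPKM, 33 with a gap of at least 2, and between 100 and 154 with 1 other library left out. The highest count came without L1 and held 101 of the 104. A pseudocount of 0.1 gave 75 genes, 74 of them shared, and scaling to the 75th percentile 105, 98 of them shared. Scaling to reads on genes, chosen after seeing the data, gave 94, 90 of them shared.

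L1 was next to the egg in 41 genes, in 26 scaled to reads on genes, and in 13 of the 50 with the widest gaps. limma called 2 genes between larvae and later stages, 1 scaled to reads on genes, and 0 to 2 with 1 library left out (0 without L1, L3, the female adult or the male adult). RR48_04450 lost its call with reads on genes (difference 1.61, limma adjusted p = 0.0578) and without the filter on low values (1.76, 0.0526). Sex differences of 4-fold in both stages held 2 genes, 6 with a pseudocount of 0.1 (all genes 6.27%) and 11 at 2-fold (all genes 9.90%). Genes with a neighbour numbered 16, 25 within 3 numbers, and 10 in the set chosen with a pseudocount of 0.1, and the neighbours outside the set that were highest in the egg numbered 37, or 66 within 3 numbers. The share of the egg held by the set was 1.48% of RPKM, 2.07% of reads (exact 95% interval 2.07 to 2.08) and 0.750% of RPKM without RR48_15367. That interval covers counting error in 1 library only and takes reads as independent. The median length was 877.5 bp, and 946.5 bp both for the 98 genes with 20 reads elsewhere and for the 50 widest gaps. The cause of these moves was not tested. No fit with a replicate block was run, since the labels number no replicates, and a fit of sex within stage was not run. With 1 library a stage, variation between clutches or individuals was not measured.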

Other observations

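A further egg-gap gene near RR48_08328 and RR48_08329, but not at the next tag, was RR48_08325. It had 238 RPKM (4115 reads) in the egg, 24.3, 0, 57.9, 4.46 and 6.02 in larvae L1 to L5, 0 (female) and 0.119 (male) in the pupae, and 0 (female) and 0.526 (male) in the adults. Its difference between larvae and later stages was the largest of the 97 genes tested, at 2.97 log2 units (SE 1.00), and did not pass (limma adjusted p = 0.115). L2 had no read, while the other larvae were above 4 RPKM. RR48_04967, near RR48_04964 and RR48_04965, had 16.0 RPKM in the egg, 1.94, 0.276, 1.81, 4.19 and 0.316 in larvae L1 to L5, 0.597 (female) and 0.960 (male) in the pupae, and 0.156 (female) and 0.452 (male) in the adults. Both genes were named after their values were seen.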
